A study of Mus musculus with 4 samples.

Results

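Tissue inhibitors of metalloproteinases (TIMPs) and matrix metalloproteinases (MMPs) were followed in mouse heart sections after myocardial infarction (MI). The set held 10 genes of the 32285 in the count matrices, chosen by symbol: the inhibitors Timp1, Timp2, Timp3 and Timp4 and the proteases Mmp2, Mmp3, Mmp8, Mmp9, Mmp12 and Mmp14. The data came from 4 sections profiled by Visium, in which tissue is laid over an array of barcoded spots that capture its mRNA. A spot is a small region that can hold several cells, so a level is that of a region and not of a cell type. Each section came from 1 adult ICR mouse, aged 12 weeks, whose left anterior descending coronary artery had been tied permanently, and the sections were taken on days 1, 4, 7 and 14. No sham or uninjured heart was among the sections, so each comparison within a section was made against its own spots richest in cardiomyocyte genes.

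MMPs are zinc enzymes that cut collagen and other proteins of the extracellular matrix, and TIMPs bind their active sites and block them. After an infarct, dead muscle is cleared and replaced by a collagen scar, and both families are known to take part in this remodelling. The members differ in role: Mmp2 and Mmp9 are gelatinases, Mmp3 is a stromelysin, Mmp8 is the collagenase stored by neutrophils, Mmp12 is the macrophage elastase, and Mmp14 is a membrane-bound enzyme that activates the Mmp2 precursor together with Timp2. Messenger RNA does not report enzyme activity, since MMPs are made as inactive precursors.

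Promoter sequences are shown for 4 members, Timp1, Mmp3 and Mmp12, which were higher where cardiomyocyte genes were low, and Timp4, which was lower there. They are RefSeq promoters on GRCm38.p6, the 250 bases before the annotated start, written 5′ to 3′ on the strand of the gene. Capitals mark matches on either strand to 3 motifs: the AP-1 site TGANTCA, the TATA box TATAAA and the GC box GGGCGG, none of which overlap here. Timp1 lies at chrX:20869916-20870165 (plus strand), Timp4 at chr6:115252206-115252455 (minus strand), Mmp3 at chr9:7445572-7445821 (plus strand) and the second annotated start of Mmp12 at chr9:7347124-7347373 (plus strand).
Timp1: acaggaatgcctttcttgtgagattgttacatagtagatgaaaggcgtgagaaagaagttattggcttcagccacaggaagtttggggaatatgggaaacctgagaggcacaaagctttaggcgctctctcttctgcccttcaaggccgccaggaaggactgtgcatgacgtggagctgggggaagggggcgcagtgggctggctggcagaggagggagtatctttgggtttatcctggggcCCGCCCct
Timp4: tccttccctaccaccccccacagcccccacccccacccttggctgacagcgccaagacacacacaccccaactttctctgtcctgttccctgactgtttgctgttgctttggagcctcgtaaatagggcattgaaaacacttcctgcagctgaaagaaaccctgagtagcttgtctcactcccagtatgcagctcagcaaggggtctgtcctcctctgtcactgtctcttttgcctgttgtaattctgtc
Mmp3: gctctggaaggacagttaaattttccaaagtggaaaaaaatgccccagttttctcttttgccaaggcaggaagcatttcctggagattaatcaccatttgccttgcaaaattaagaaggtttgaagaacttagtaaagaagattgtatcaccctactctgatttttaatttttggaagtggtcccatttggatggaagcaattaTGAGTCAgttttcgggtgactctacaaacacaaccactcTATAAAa
Mmp12: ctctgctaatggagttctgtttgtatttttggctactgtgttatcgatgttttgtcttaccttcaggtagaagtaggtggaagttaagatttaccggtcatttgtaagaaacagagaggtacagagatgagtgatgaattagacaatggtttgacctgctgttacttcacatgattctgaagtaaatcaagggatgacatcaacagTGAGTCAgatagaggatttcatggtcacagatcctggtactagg
The AP-1 letters begin 46 bases before the start of Mmp3 and 44 bases before that of Mmp12, and 6.75% of the 32851 promoters of this length hold them. The TATA letters begin 7 bases before the start of Mmp3 and occur in 12.4% of promoters, and the GC box, 8 bases before the start of Timp1, occurs in 32.7%. The window at the first annotated start of Mmp12, chr9:7344147-7344396, held none of the 3 motifs, so the second start was shown for its match. None was found in the Timp4 window. The windows of Timp2, Timp3, Mmp8 and Mmp14 were scanned too and are not shown. They held no AP-1 or TATA letters, and GC boxes numbered 1 in Timp2, 1 in Timp3, 2 in Mmp14 and 0 in Mmp8. Timp2 and Mmp14 were also higher where cardiomyocyte genes were low, so the AP-1 letters were not shared by the members that rose. A match describes the letters only, and binding was not measured.

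Spots with over 1% of UMIs in hemoglobin genes were removed, which left 7503 of 9102 spots and 9292678 to 15713779 unique molecular identifiers (UMIs, each standing for 1 captured mRNA molecule) per section. Within each section, spots were ranked by the share of UMIs in Myh6 and Myl2, genes of the ventricular cardiomyocyte's contractile apparatus, and cut into 4 groups of equal size, called CM-low, CM-midlow, CM-midhigh and CM-high after their rank for these cardiomyocyte (CM) genes. Levels are given in CPM, UMIs per 1000000 UMIs of the group. The ranking genes took 0.773%, 0.271%, 0.229% and 1.53% of UMIs in CM-low spots on days 1, 4, 7 and 14 and 2.56% to 2.82% in CM-high spots, so the CM-low spots of day 14 still held much muscle. The last spot inside the CM-low group had a share of 1.08%, 0.652%, 0.706% and 1.94%, and the first spot outside it 1.08%, 0.654%, 0.720% and 1.94%. In CM-low spots 5 fibroblast markers summed to 1649, 23479, 26821 and 6567 CPM on days 1, 4, 7 and 14, against 996 to 1379 in CM-high spots, and 6 macrophage markers summed to 941, 5746, 3985 and 1376 against 246 to 382. Neutrophil markers (5 genes) summed to 399 CPM in CM-low spots on day 1 and to 70.0 to 161 later, against 4.04 to 17.2 in CM-high spots. All markers of these 3 lists were detected in CM-low spots of every section. Other tissues moved with the ranking too. Adipocyte markers (5 genes) summed to 324 CPM in CM-low spots on day 1 and 783 on day 7, against 21.7 and 9.98 in CM-high spots, and to 5.28 to 5.80 on the other days. Mesothelial markers (4 genes) summed to 228 CPM against 9.21 on day 7. The atrial list (5 genes, of which 2 to 4 were detected) summed to 3701, 10902, 1015 and 711 CPM in CM-low spots against 115, 548, 295 and 91.6 in CM-high spots. It includes Nppa, which the study used as a marker of the border zone, so this sum cannot be assigned to atrial tissue. Of the day 7 spots, 118 had 10 or more UMIs from genes of fast skeletal muscle, and 115 of them fell in CM-low spots. The median depth of CM-low spots was 6389 UMIs on day 1, near the 5971 of CM-high spots, but it was lower on days 4, 7 and 14 (6524.5, 2826 and 2329.5 against 9221, 5515 and 8278), and the part of depth and of cell make-up in the levels below was not tested. In summed spots, fewer cells of a type and less RNA per cell cannot be told apart.

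Timp1 made up most of what was captured from the inhibitors in CM-low spots at first. In CM-low spots its level was 1599 CPM (95% interval 1552 to 1647), 2376 (2319 to 2434), 799.8 (755 to 847) and 232 (212 to 253) in the order of days, and in CM-high spots it was 30.3, 39.0, 13.4 and 8.33. Intervals are exact Poisson and cover counting error only, not the spread between mice. Timp1 was thus far higher in CM-low spots in every section, and its level there was highest on day 4 and lowest on day 14. The ratio of CM-low to CM-high spots was 52.8, 60.9, 59.5 and 27.8, and 68.8% to 83.9% of the UMIs of Timp1 in a section lay in CM-low spots. A spot with at least 1 UMI of Timp1 was the rule in CM-low spots of day 1 and day 4 (93.2% and 96.4% of spots), less so later (68.2% and 34.7%), against 5.76% to 30.1% in CM-high spots.

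**Figure D1:**
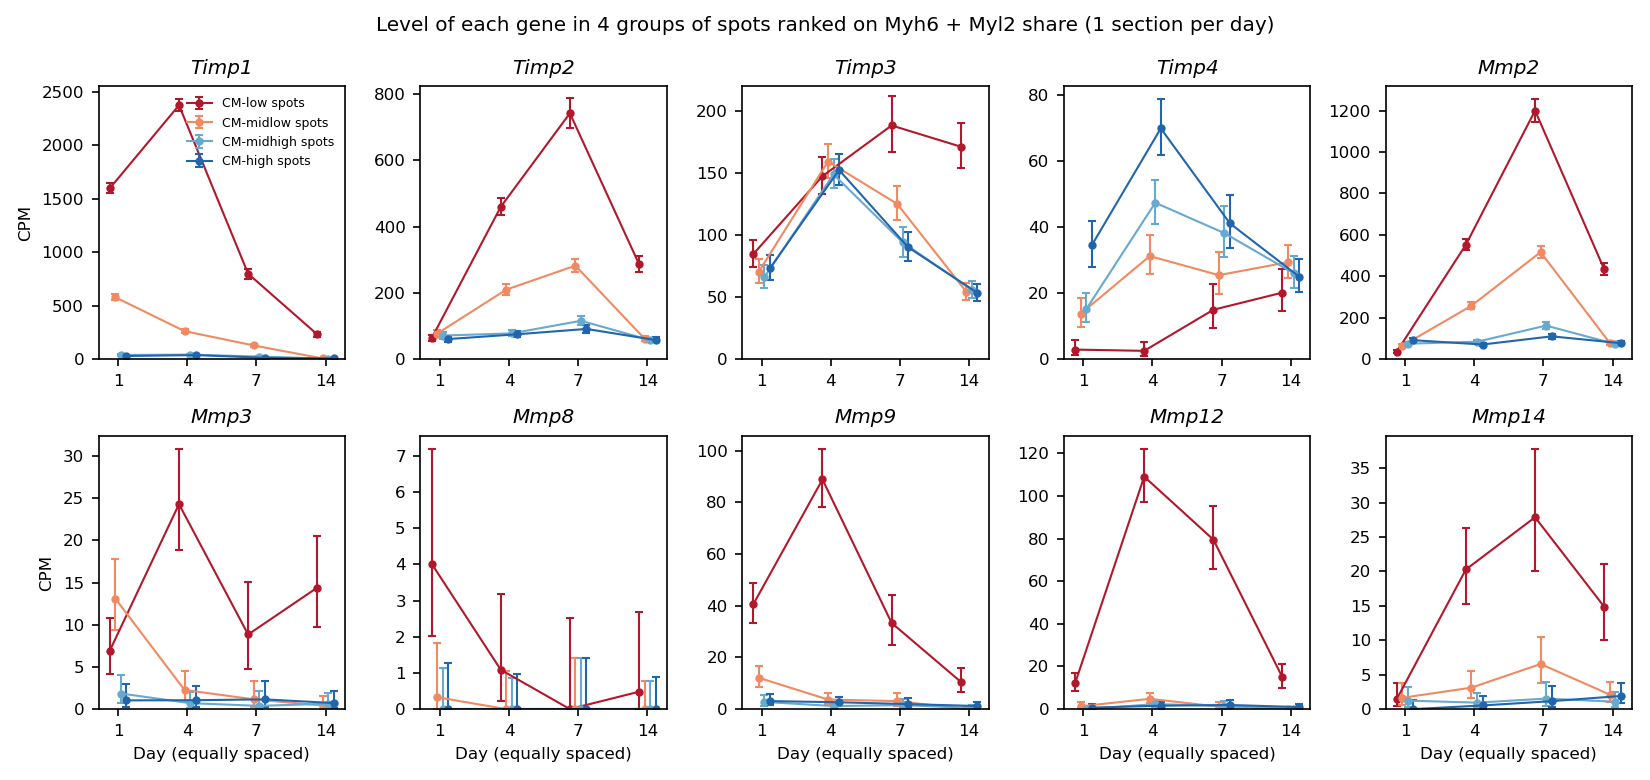
CPM (vertical axis, a scale of its own in each panel) of the 10 genes in the 4 groups of spots of the sections of days 1, 4, 7 and 14 (horizontal axis, days equally spaced). Points are 1 section each and bars exact Poisson 95% intervals for counting error. Timp1 in CM-low spots stood at 1599 and 2376 on days 1 and 4, Timp2 and Mmp2 stood highest on day 7 at 741 and 1199.7, and Timp4 was ordered the other way round, with CM-high spots on top on days 1, 4 and 7. CM-low spots of day 14 held more muscle than those of day 7, with a ranking share of 1.53% against 0.229%.

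Timp2, which both inhibits MMPs and helps Mmp14 to activate Mmp2, followed a later course. Its level in CM-low spots was 62.8, 459, 741 and 287 CPM, day by day, against 60.9, 75.3, 91.4 and 57.8 in CM-high spots. On day 1 CM-low and CM-high spots did not differ beyond counting error (ratio 1.03, 0.832 to 1.28), whereas the ratio was 6.10, 8.11 and 4.96 on days 4, 7 and 14.

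Timp3, the inhibitor that stays bound to the matrix, had the smallest difference between CM-low and CM-high spots in the fit over 4 sections below. Its single sections were less alike. It measured 84.8, 148, 188 and 171 CPM in CM-low spots and 73.3, 153, 90.2 and 53.5 in CM-high spots. By CPM, CM-low and CM-high spots did not differ beyond counting error on day 1 (ratio 1.16, 0.956 to 1.40) or day 4 (0.967, 0.850 to 1.10). CM-low spots were higher on day 7 (2.09, 1.75 to 2.50) and day 14 (3.20, 2.70 to 3.80). With TMM, the scaling used in the test below, the ratios were 0.819, 0.492, 1.23 and 2.50 by day. The day 4 and day 7 readings therefore depended on the scaling.

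Timp4, the inhibitor with the most restricted expression and known from the heart, ran opposite to Timp1. It measured 2.92, 2.54, 15.0 and 20.2 CPM in CM-low spots and 34.4, 69.8, 41.1 and 25.0 in CM-high spots. CM-low spots were lower on days 1, 4 and 7 (ratios 0.0850, 0.0364 and 0.364), and on day 14 the interval of the ratio held 1 (0.807, 0.550 to 1.16). On day 7, 21 of the 22 UMIs of Timp4 in CM-low spots lay in the spots ranking higher for fast skeletal muscle genes, and 21 in those ranking higher for adipocyte genes. With the skeletal muscle spots left out its day 7 level there was 2.16 CPM, close to those of days 1 and 4. On day 14, 40 of its 42 UMIs lay in the spots with fewer fibroblast markers. With spots cut into 10 ranked groups in place of 4, the lowest held 3.27 CPM of Timp4 that day, on 1 UMI, against 27.2 in the highest.

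Mmp2, a gelatinase made largely by fibroblasts, had the widest swing of the proteases. In CM-low spots its level was 36.9 CPM (30.1 to 44.8), 553 (526 to 582), 1199.7 (1144 to 1257) and 434 (406 to 464) from the first day to the last, and in CM-high spots it was 91.8, 71.1, 111 and 77.6. On day 1 CM-low spots therefore held less Mmp2 than CM-high spots (ratio 0.402, 0.316 to 0.507), while on days 4, 7 and 14 they held 7.78, 10.8 and 5.60 times as much. CM-midlow spots held 258 and 517 CPM on days 4 and 7, so Mmp2 reached beyond CM-low spots on those days.

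Mmp9, the gelatinase of neutrophils and macrophages, measured 40.6, 88.8, 33.3 and 10.6 CPM in CM-low spots and 3.10, 2.63, 1.92 and 1.19 in CM-high spots. Mmp12 measured 12.1, 109, 79.6 and 14.9 in CM-low spots and 0.688, 1.58, 1.92 and 0.952 in CM-high spots. Both were higher in CM-low spots in all 4 sections, with the highest level on day 4. CM-low spots held 84.6% to 90.7% of the UMIs of Mmp12 and 66.9% to 89.7% of those of Mmp9. The 95% intervals of these shares were apart on day 7 only (84.3% to 95.1% for Mmp12, 62.0% to 84.2% for Mmp9). Sections whose CPM intervals overlapped were those of days 1 and 7 for Mmp9 and days 1 and 14 for Mmp12.

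The remaining proteases were sparse. Mmp3, which cuts many matrix proteins and activates other MMP precursors, measured 6.94, 24.3, 8.84 and 14.4 CPM in CM-low spots and 0.714 to 1.15 in CM-high spots, and on day 1 its level was higher in CM-midlow spots, 13.1. Mmp14 measured 1.46, 20.3, 27.9 and 14.9 in CM-low spots and at most 1.90 in CM-high spots. Its day 1 value rests on 4 UMIs against 0. The exact 95% interval of that ratio began at 0.701, so the 2 groups did not differ beyond counting error on day 1. Mmp8 was nearly absent, with 16 UMIs in all kept spots, 12 of them on day 1, where CM-low spots held 11. On day 7 it had 0 UMIs, which allows up to 2.04 CPM in CM-low spots.

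Whether these differences between groups of spots were shared by the days was tested with edgeR's quasi-likelihood test on UMIs summed per section and group of spots, 16 libraries in all, with section as a block and Benjamini-Hochberg adjustment over 12692 genes. Of the 10 members 9 had the 50 UMIs needed for the test and Mmp8 did not. Between CM-low and CM-high spots 7 of the 9 passed an adjusted p of 0.05, 6 higher and 1 lower, against 51% of all genes tested, 26.9% higher and 24% lower. The contrast was thus broad, and it separates tissue of different make-up. The median log2 difference was 3.18 over the 9 members and 0.07 over all genes. Among inhibitors 2 of 4 rose, 1 fell and 1 did not pass (median 0.83), and among proteases 4 of 5 rose (median 3.26).

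Timp1 had the largest fitted difference, 4.95 on the log2 scale (SE 0.51, adjusted p = 1.24e-05 in edgeR's quasi-likelihood test, higher in 4 of 4 sections). Mmp12 rose by 4.49 (SE 0.38, adjusted p = 9.08e-07), Mmp9 by 3.51 (SE 0.44, adjusted p = 2.53e-05), Mmp14 by 3.26 (SE 0.48, adjusted p = 5.62e-05) and Mmp3 by 3.18 (SE 0.75, adjusted p = 0.00278), each in 4 of 4 sections in the same edgeR fit. For Mmp14 the day 1 direction rests on 4 UMIs against 0 and lay within counting error. Timp2 rose by 1.51 (SE 0.38, adjusted p = 0.00456 in edgeR). By CPM it was higher in 4 of 4 sections, but on the scale of the fit, which TMM corrects for the make-up of each library, in 3 of 4, with a day 1 ratio of 0.731 in place of 1.03, and without the day 4 section it missed the threshold (1.46, adjusted p = 0.0527). Timp4 fell by 2.83 (SE 0.57, adjusted p = 0.00133 in edgeR, lower in 4 of 4 sections).

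Mmp2 and Timp3 did not pass. For Mmp2 the log2 difference was 1.51 (SE 0.60, adjusted p = 0.0536 in edgeR, higher in 3 of 4 sections), and without the day 1 section, the one in which it was lower, it was 2.23 (adjusted p = 0.000244). Mmp2 also passed with DESeq2 (1.48, adjusted p = 0.0327). For Timp3 the difference was 0.16 (SE 0.29, adjusted p = 0.668 in edgeR, higher in 3 of 4 sections by CPM and in 2 of 4 on the TMM scale), and without day 14 it was -0.31 (adjusted p = 0.253). Scaling by total UMIs in place of TMM moved the median of all genes from 0.07 to 0.73 and the calls from 3420 higher and 3052 lower to 7237 higher and 1278 lower, and under it Timp3 (0.78, adjusted p = 0.00816) and Mmp2 (2.15, adjusted p = 0.0137) passed as well.

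**Figure D2:**
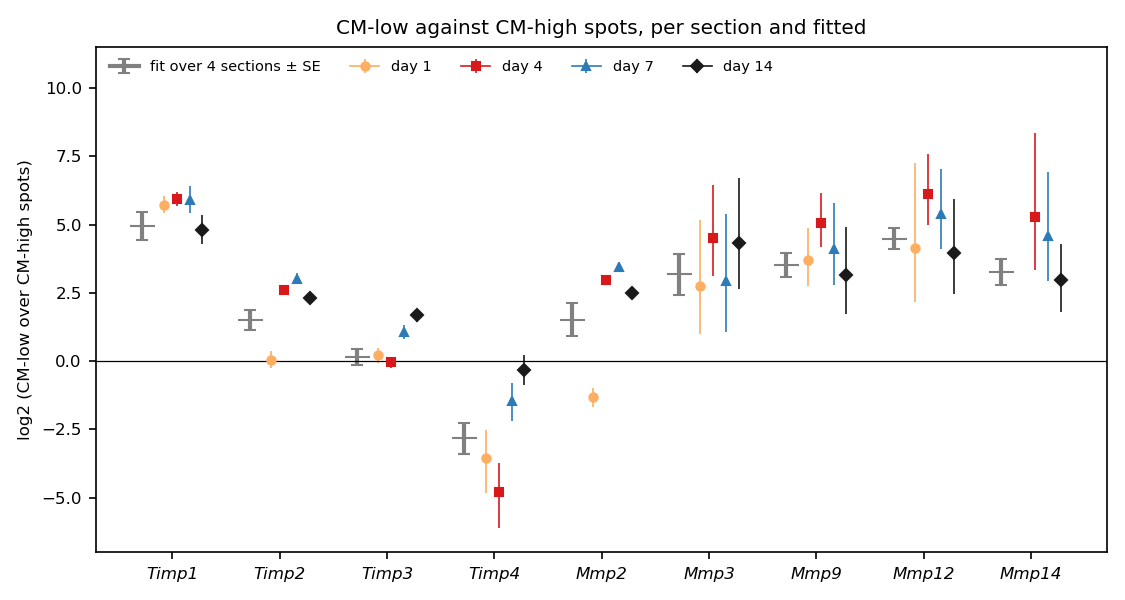
Difference between CM-low and CM-high spots on the log2 scale (vertical axis) for the 9 members tested. Coloured points give the ratio of CPM in the section of each day with exact 95% intervals for counting error, and the grey mark gives the fitted value over 4 sections with its SE, on the TMM scale. The fitted value ran from 4.95 for Timp1 to -2.83 for Timp4, and Mmp2 lay below 0 on day 1 and above it on the other days. Mmp14 has no day 1 point because its CM-high spots held 0 UMIs.

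Away from CM-low spots the test, which asks for a difference shared by the days, called few members. By CPM in single sections, more members differed beyond counting error between CM-midlow and CM-high spots. The ratio of Mmp2 was 0.705 on day 1 and 3.63 and 4.67 on days 4 and 7. That of Timp2 was 2.78 and 3.09 on days 4 and 7, and that of Timp4 0.399, 0.447 and 0.619 on days 1, 4 and 7. Between CM-midlow and CM-high spots only Timp1 passed (log2 difference 2.67, SE 0.49, adjusted p = 0.0166 in edgeR's quasi-likelihood test, higher in 3 of 4 sections), against 3.16% of all genes. The call was lost without the section of day 1 (1.99, adjusted p = 0.0949), day 4 (2.76, adjusted p = 0.235) or day 7 (2.56, adjusted p = 0.174) and without the section block (3.19, adjusted p = 0.269), each by the same edgeR test. Its CM-midlow level was 579, 263, 129 and 7.17 CPM on days 1, 4, 7 and 14. Between CM-midhigh and CM-high spots none of the 9 members and 0 of the 12692 genes passed edgeR's test, with 185 at an unadjusted p under 0.05, and DESeq2 also called 0.

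Splitting spots into 10 ranked groups in place of 4 showed how sharply the levels changed along the ranking. On day 14 Timp1 measured 1224, 119 and 4.83 CPM in the 3 lowest of the 10, and Mmp2 measured 1879, 297 and 72.4. Timp3 measured 537, 157 and 60.1 in the same 3 groups. On day 1 the course of Timp1 was flatter, 1962, 1494, 1234 and 749 in the 4 lowest and 117 in the next. The highest day 14 values were thus held by a small group of spots, and the CM-low level of that day averages them with spots of near-preserved muscle.

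The balance of the members was described as the ratio of summed UMIs of the 4 inhibitors to those of the 6 proteases. Visium primes from the poly(A) tail, so each captured transcript is counted once whatever its length, and UMIs of different genes were added without a length correction. Over whole sections the ratio was 7.45 (exact 95% interval 7.00 to 7.94), 3.45 (3.32 to 3.57), 1.31 (1.25 to 1.36) and 1.66 (1.57 to 1.75) in the order of days. In CM-low spots it was 17.2, 3.75, 1.29 and 1.45, and in CM-high spots 2.06, 4.38, 2.02 and 1.76. UMIs of the 4 inhibitors therefore exceeded those of the 6 proteases in every section, by far the most in the CM-low spots of day 1. Other MMP genes were outside the sum, among them Mmp15 (2127 UMIs in the kept spots), Mmp23 (2072) and Mmp19 (716). The ratio thus depends on which proteases are counted and does not describe the whole MMP family.

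Most of the day 1 excess was Timp1. Without Timp1 the ratio in CM-low spots was 1.48, 0.765, 0.700 and 0.977 (day 14 interval 0.895 to 1.07, which holds 1). In CM-high spots it was 1.74, 3.87, 1.91 and 1.66. On days 4, 7 and 14 the spots low in cardiomyocyte genes thus held fewer UMIs of the other 3 inhibitors per protease UMI than the spots high in them, in each section. The log2 ratio of all members differed between CM-low and CM-high spots by 3.06 on day 1 and by -0.22, -0.65 and -0.28 on days 4, 7 and 14, a mean of 0.48 (SD 1.73, n = 4). An exact two-sided sign-flip permutation test over the 4 sections gave p = 1, and the smallest p it can give is 0.13. Without day 1 the mean was -0.38 (exact p = 0.25, the smallest for 3 sections).

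**Figure D3:**
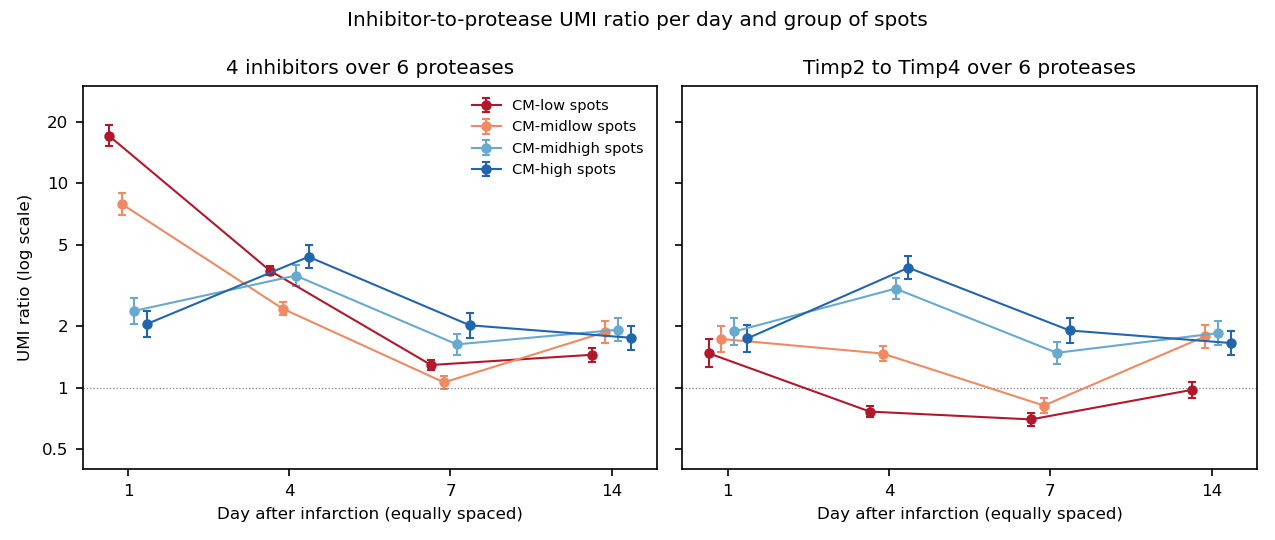
Ratio of inhibitor to protease UMIs (vertical axis, log scale) in the 4 groups of spots per day (horizontal axis, days equally spaced), with all 4 inhibitors on the left and without Timp1 on the right. Points are 1 section each and bars exact 95% intervals for counting error. On day 1 CM-low spots stood at 17.2 on the left and 1.48 on the right. On the right they lay below 1 on days 4 and 7 (0.765 and 0.700), and the day 14 interval held 1 (0.977, 0.895 to 1.07).

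The ratio was also taken over 2 groups of proteases. All inhibitor UMIs over those of Mmp2 and Mmp14 were 45.6, 5.21, 1.42 and 1.58 in CM-low spots on days 1, 4, 7 and 14. Over those of Mmp3, Mmp8, Mmp9 and Mmp12 the ratio was 27.5, 13.4, 14.3 and 17.6. Mmp2 made up nearly all of the first sum (101 UMIs on day 1 against 4 of Mmp14). The second joined genes of different course, since Mmp9 had 111, 245, 49 and 22 UMIs and Mmp12 33, 301, 117 and 31. Timp2 UMIs over Mmp14 UMIs, the pair that acts together on the Mmp2 precursor, were 43.0, 22.6, 26.6 and 19.3, with intervals that overlapped between all 4 days.

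The make-up of each family, counted over its members in the set, turned over with time in CM-low spots. In percentage points, the shares of Timp1, Timp2 and Mmp2 moved over narrower ranges in CM-high spots. The Timp4 share there had intervals that overlapped between all days, and in CM-low spots it was lowest on day 4 (0.0850%) and highest on day 14 (2.84%). Timp1 took 91.4%, 79.6%, 45.8% and 32.6% of inhibitor UMIs in CM-low spots on days 1, 4, 7 and 14, and Timp2 took 3.59%, 15.4%, 42.5% and 40.4%. In CM-high spots Timp3 took 36.9% to 45.3%, Timp2 22.4% to 40.0%, Timp4 17.3% to 20.7% and Timp1 5.69% to 15.2%. Among proteases in CM-low spots Mmp2 took 36.2%, 69.4%, 88.9% and 88.7%, and Mmp9 took 39.8%, 11.1%, 2.47% and 2.16%. In CM-high spots Mmp2 took at least 92.5% on every day.

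**Figure D4:**
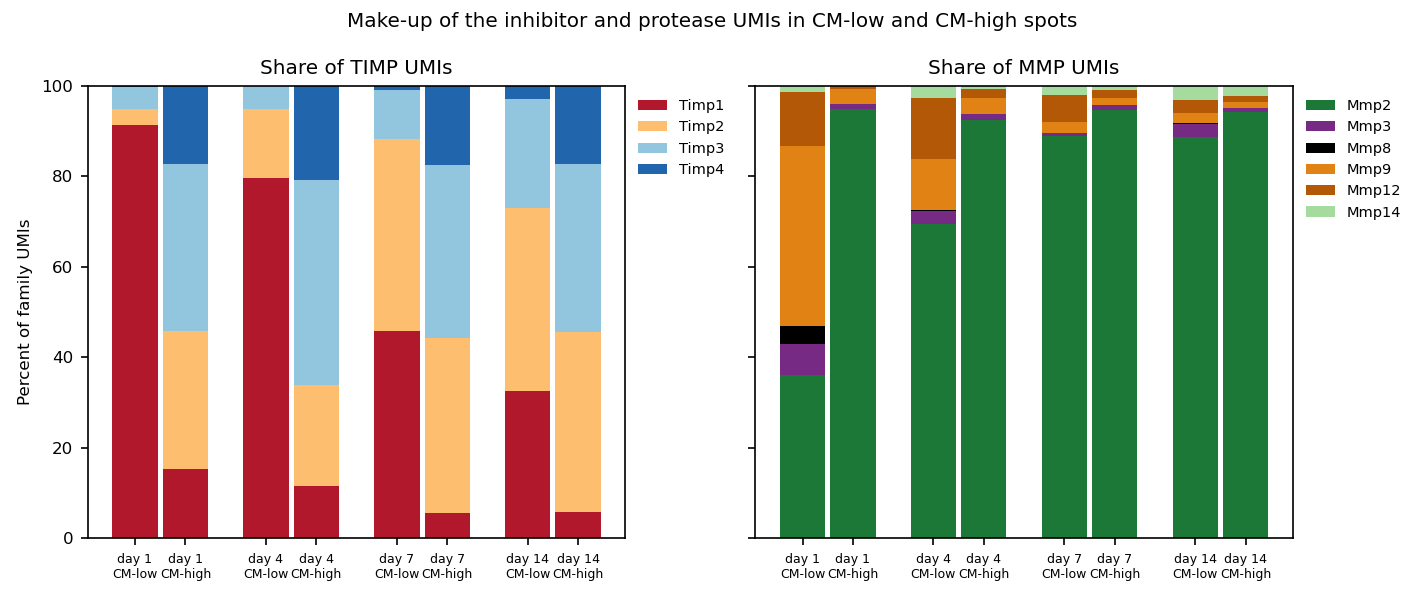
Share of each gene in the summed UMIs of the set's members of its family (vertical axis, percent) in CM-low and CM-high spots of each day, inhibitors on the left and proteases on the right. Bars add up to 100. In CM-low spots Timp1 went from 91.4% on day 1 to 32.6% on day 14, and Mmp2 from 36.2% to 88.7%, while in CM-high spots Timp3 took 36.9% to 45.3% and Mmp2 at least 92.5%.

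Changes of at least 2-fold between following days were counted in CM-low spots with no test, since each day is 1 mouse. From day 1 to day 4, 6 of the 9 members seen were higher (Timp2, Mmp2, Mmp3, Mmp9, Mmp12 and Mmp14) and 0 lower, against 20.2% and 6.73% of genes. From day 4 to day 7 Timp4 and Mmp2 were higher and Timp1, Mmp3 and Mmp9 lower, against 7.51% and 7.38%. The Timp4 step rests on 22 UMIs and was gone with the skeletal muscle spots left out (2.16 CPM on day 7 against 2.54 on day 4). From day 7 to day 14, 5 were lower (Timp1, Timp2, Mmp2, Mmp9 and Mmp12) and 0 higher, against 32.8% and 7.07%, and the ranking share of CM-low spots was itself higher on day 14. Without the hemoglobin limit Timp2 went from 748 to 426 CPM and Mmp2 from 1146 to 596, each by less than 2-fold. The day 14 CM-low level of Timp1 was 345 CPM without that limit and 144 with spots of at least 1000 UMIs, against 232. In the lowest of 10 ranked groups, with ranking shares of 0.0988% on day 7 and 0.230% on day 14, the order differed. Timp1 went from 898 to 1224 CPM there, Timp2 from 671 to 1247 and Mmp2 from 1093 to 1879. Mmp9 went from 48.3 to 62.2 on 34 and 19 UMIs, and Mmp12 fell from 118 to 49.1. In CM-low spots Mmp2 had the largest step, 15.0-fold from day 1 to day 4 (12.3 to 18.5, counting error only). In CM-high spots 4 of 9 were higher and 0 lower from day 1 to day 4 (5.34% and 7.08% of genes): Timp3 and Timp4, 2.08 and 2.03 times as high, and Mmp12 and Mmp14, which rest on at most 6 UMIs. From day 4 to day 7 Mmp14 was higher and Timp1 lower there (8.3% and 5.09%), and from day 7 to day 14 Mmp12 was lower and 0 members higher (8.57% and 4.44%). The Mmp14 step rests on 2 and 3 UMIs and the Mmp12 step on 5 and 4, and the interval of each held 1.

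Within CM-low spots, members were set beside marker genes of macrophages (Adgre1, Csf1r, Cd68, C1qa, Lyz2 and Fcgr1) and of fibroblasts (Dcn, Pdgfra, Col1a1, Col3a1 and Lum). Spots ranking high for the macrophage list only were compared with spots ranking high for the fibroblast list only, a split chosen after the data had been seen. Mmp12 was higher in macrophage-only spots on day 1 (ratio 4.42, 1.19 to 24.4), day 4 (2.40, 1.66 to 3.53) and day 7 (6.98, 2.51 to 27.0). Mmp9 was higher there on day 4 (4.75, 3.01 to 7.77), and on days 1 and 7 its intervals held 1.

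Mmp2 ran the other way, with ratios of 0.526, 0.617 and 0.319 on days 4, 7 and 14, all with intervals below 1, and 0.751 on day 1 (0.381 to 1.45). Timp1 was nearly even, 1.01, 0.890, 0.750 and 0.801 by day, with intervals below 1 on days 4 and 7. Neither list was made up of myofibroblast markers. Among interstitial cells of the heart the study found Timp1 almost only in myofibroblasts, which this split does not separate from other fibroblasts. On day 1 a myofibroblast list (Postn, Cthrc1, Ddah1, Fn1 and Tnc) summed to 866, 301, 45.8 and 62.6 CPM from CM-low to CM-high spots. The fibroblast list summed to 1649, 1643, 1028 and 1019. The macrophage list summed to 941, 500, 230 and 275 and the neutrophil list to 399, 93.9, 15.4 and 17.2. Several lists thus fell along the day 1 ranking as Timp1 did, and which cells held it was not tested. Timp2 was lower in macrophage-only spots on days 4 and 14 (0.793 and 0.458), and Timp3 on day 14 (0.313). The levels of Timp1 on day 7 were 710.3 in macrophage-only, 947 in fibroblast-only and 1498 CPM in spots high for both lists, against 265 in spots high for neither.

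On day 14 the 2 lists lay mostly in the same spots: 222 of the 522 CM-low spots ranked high for both and 39 for each alone. In the spots ranking higher for fibroblast markers Timp1 measured 1071 CPM against 53.0 in the others, and Mmp2 measured 1801 against 143. Those spots were also much shallower, with a median of 1125 UMIs against 6919. Mmp9 was set beside neutrophil markers as well, and spots ranking higher for them had more of it on day 1 (ratio 2.25, 1.50 to 3.43), day 4 (1.32, 1.01 to 1.71) and day 14 (6.77, 1.99 to 35.7). On days 4, 7 and 14 most CM-low spots had no UMI of the neutrophil list (135 of 420, 61 of 462 and 69 of 522 had at least 1), so their order in that ranking was largely arbitrary.

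**Figure D5:**
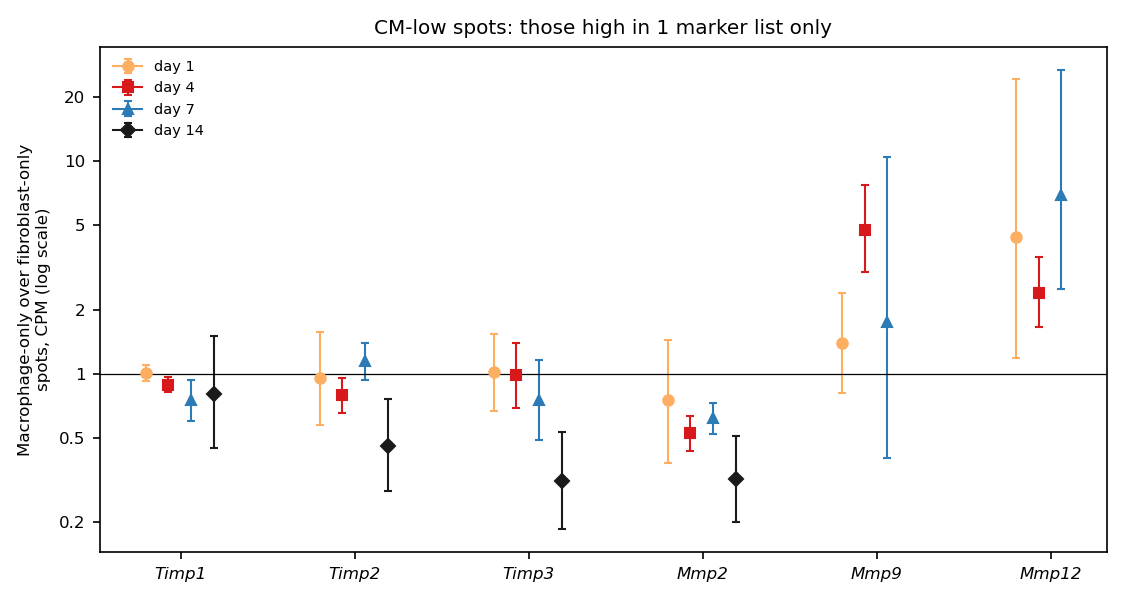
Ratio of CPM in CM-low spots ranking high for macrophage markers only over CM-low spots ranking high for fibroblast markers only (vertical axis, log scale), per gene and day, with exact 95% intervals for counting error. Mmp12 lay above 1 on days 1, 4 and 7 (4.42, 2.40 and 6.98) and Mmp2 below 1 on days 4, 7 and 14 (0.526, 0.617 and 0.319). Day 14 points of Mmp9 and Mmp12 are missing because fibroblast-only spots held 0 UMIs.

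Genes with the most similar course over the 16 libraries were looked up among 4762 genes with at least 1000 UMIs, by Pearson's r of log2 (CPM + 1), for the 5 members at that depth. The libraries share sections and groups of spots, so r is a description. Timp1 ran closest to Sbno2, Ccl6, B4galt5, Tbl1xr1 and Cd63 (r 0.97 to 0.98), of which Ccl6 is a myeloid chemokine and Cd63 a tetraspanin known as a Timp1 receptor. For the growth factor activity of Timp1 on cardiac myofibroblasts, however, the study proposes Lrp1 and not Cd63. Timp2 ran closest to Ssc5d, Col14a1, Mxra8, Lum and Fndc1 (r at most 0.99) and Mmp2 to Dpt, Pdgfrl, Fbln1, Islr and Dcn (0.98 to 0.99), where Col14a1, Lum, Dpt, Fbln1 and Dcn encode matrix proteins of fibroblasts. Timp4 ran closest to Msrb2, Mylk4, Klhl24, Pank1 and Ppargc1a (0.91 to 0.93), the last a regulator of mitochondrial genes. Timp3 had the weakest matches, Palm, Xdh, Kank2, Rsrp1 and Srpk2 (0.86 to 0.91). Among the members themselves Timp2 and Mmp2 were the closest pair (r = 0.97), followed by Timp1 and Mmp9 (0.94).

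Other genes of matrix turnover were counted in the same CM-low against CM-high contrast, beside the 51% of all genes called and their median of 0.07. Of 17 other MMP genes 6 could be tested, of which 4 rose and Mmp15 fell (median 1.97). The largest were Mmp19 (2.72, SE 0.33), Mmp16 (2.62, SE 0.72) and Mmp23 (2.55, SE 0.50). Of 15 adamalysins, relatives of MMPs that shed surface proteins or cut proteoglycans, 14 rose and 0 fell (median 1.26), led by Adam8 (4.69), the aggrecanase Adamts4 (4.51) and Adam12 (3.83).

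Of 12 other regulators of proteolysis tested, 9 rose and Bsg, an inducer of MMPs, fell (median 1.87). The largest were the urokinase receptor Plaur (3.38) and the serpin Serpina3n (3.14). All 9 surface partners of Timp1 and MMPs rose (median 1.39), with Cd44 (3.87), a docking site for Mmp9, Itgb3 (3.09) and Cd74 (2.33) in front. In all 4 lists the calls were edgeR's at an adjusted p of 0.05, and each named gene kept its direction in 4 of 4 sections, lower for Mmp15 and Bsg and higher for the others.

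By position in GRCm38 with GENCODE vM21 annotation, Mmp3 (chr9:7445822-7455975), Mmp8 (chr9:7558456-7568485) and Mmp12 (chr9:7344381-7369499) lie within the same stretch of chromosome 9, all on the plus strand. Timp1 (chrX:20870166-20874735), Timp3 (chr10:86300372-86349506) and Timp4 (chr6:115241892-115252205) each lie inside a synapsin gene on the other strand, Syn1, Syn3 and Syn2. Annotated exons share 0, 1733 and 90 bases with the host gene, and the hosts had 38, 6 and 67 UMIs in the kept spots against 16369, 5246 and 1486 for Timp1, Timp3 and Timp4. Timp2 (chr11:118301069-118355740), Mmp2 (chr8:92827291-92853420), Mmp9 (chr2:164940780-164955850) and Mmp14 (chr14:54431612-54445364) lie on other chromosomes.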

How the data were processed

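Fresh-frozen hearts were embedded in OCT, cut at 10 µm and run on Visium. The authors made the deposited values, raw UMI counts per gene and spot under tissue, with Space Ranger 1.3.0 on mm10, and the submitters' processing notes also name Seurat 4.1.1. Labels and methods give day 1 for the first section and the text of the study's results day 2, and day 1 was used. The gene set and all gene lists were chosen with earlier results of these data known. Named genes were the 10 members, per pathway list the 3 with the largest called difference in 4 of 4 sections, and per member with at least 1000 UMIs the 5 genes of the most similar course. A gene that this rule would name is not reported here.

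Spots with over 1% of UMIs in 8 hemoglobin genes were removed, the limit of the study, which names no gene set. Spot positions were not used. Spots were ranked on Myh6 plus Myl2 within each section and summed in 4 groups of equal size, and both genes were left out of the tests. edgeR 4.0.16 (limma 3.58.1, R 4.3.3) fitted genes with at least 50 UMIs, with TMM scaling, robust quasi-likelihood dispersion, section as a block and 9 residual degrees of freedom. With 1 mouse per day the test treats days as repeats, and no test between days was made. Ratios have exact conditional and shares Clopper-Pearson 95% intervals. On simulated counts for CM-low against CM-high spots (12692 genes) 62 of 100 genes changed by a log2 value of 1 and 90 of 100 changed by 2 were called, with 10 false calls. Far fewer genes were changed there than the 51% called in the data, and equally up and down. The false calls of the simulation therefore do not measure the error of the real contrast. Barcodes come from the printed slide, so 1572 to 1918 were shared between pairs of sections without being the same spots. Promoters come from RefSeq on GRCm38.p6, and those of Mmp2 and Mmp9 were not matched. Mitochondrial genes took 8.73% to 38.5% of UMIs per group of spots.

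Alternatives were DESeq2 1.42.0, total UMIs in place of TMM, at least 10 or 1000 UMIs per gene, no section block, only the compared groups, each section left out, a hemoglobin limit of 0.5% or none, a minimum of 1000 UMIs per spot, ranking on 5 other cardiomyocyte genes, 3 or 10 groups of spots, skeletal muscle spots left out and totals without mitochondrial genes.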

Additional observations from a re-analysis of the deposited data

Results flagged for a closer look

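Mmp2 was lower in CM-low than in CM-high spots on day 1 (ratio 0.402, 0.316 to 0.507) and higher on days 4, 7 and 14. Days were 1 mouse each and the difference between them was not tested.

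The inhibitor-to-protease UMI ratio of CM-low spots was above that of CM-high spots on day 1 (log2 difference 3.06) and below it on the other days. That difference between days was not tested either.

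The spots removed for hemoglobin, outside all comparisons, held 3904 UMIs of the 10 genes. Their Timp1 level was 292, 479, 68.6 and 88.6 CPM on days 1, 4, 7 and 14, between those of CM-low and CM-high spots.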

How the results depend on the processing

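Of 158 fold changes of members under the alternatives 146 kept their direction and side of the threshold, 10 newly passed, 1 (Timp2 without day 4) no longer did, and 1 reversed, Timp3 at -0.31 without day 14 (-0.31 to 0.50 with a section left out). The 10 were 1 for Timp3 and 9 for Mmp2, whose adjusted p ran from 0.000244 to 0.257 over the alternatives of edgeR and DESeq2. Of 840 levels 166 moved beyond their counting interval, 70 of them with mitochondrial genes left out of the total.

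Genes called between CM-low and CM-high spots numbered 6472, 3223 with at least 1000 UMIs per gene and 4400 to 6284 with a section left out. Between CM-midlow and CM-high spots they numbered 401, 169 with at least 1000 UMIs per gene, 0 without the section block, 198 with spots of at least 1000 UMIs, 251 without skeletal muscle spots and 0 to 1509 with a section left out. The mean log2 difference of the inhibitor-to-protease ratio, 0.48, was -0.38 to 0.85 with a section left out, and it was the day 1 section that turned its sign. In CM-low spots the ratio was 4.14 on day 4 with 10 groups of spots, and on day 7 it was 1.20 with 3 groups and 1.19 without skeletal muscle spots. The causes were not tested.

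Groups of spots were paired within sections through the section block, except in the alternative without it, and days could not be paired, with 1 section each. Levels under about 20 CPM rest on few UMIs, and with 1 mouse per day the spread between mice is unknown.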

Other observations

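Along the ranking of the day 1 section Mmp2 and Timp4 both stood lowest in the spots ranking lowest for cardiomyocyte genes. With spots in 10 ranked groups, the lowest and the highest, Mmp2 measured 24.8 and 90.3 CPM and Timp4 2.15 and 38.3, while Timp1 measured 1962 and 29.2. On day 4 Timp4 measured 0.955 and 69.8 in the same 2 groups, and Mmp2 546 and 63.4. Days were not compared by a test.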
